A study of Mus musculus with 6 samples.

Results

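The 10 genes described here belong to the NRF2 and glutathione defence against oxidants and were measured in Hepa1-6, an established mouse hepatoma line from a C57/L mouse. They were taken by name from the deposited tables, where all 10 were among 25078 genes, and all 10 were among the 11577 genes with an RPKM (reads scaled for exon length and library size) over 1 in at least 1 compared library. The 6 libraries of ribosome-depleted RNA came from untreated parental cells (wt, 1 library), cells transduced with lentivirus carrying a scramble vector (scr, libraries 25-2 and 50-1) and cells carrying a midnolin shRNA vector (knockdown, libraries 25-3, 50-2 and 50-5). Scr and knockdown cells were selected with puromycin and grown from single cells by limiting dilution, wt cells were neither transduced nor selected, and the labels do not say which clone each library represents. A library may therefore stand for 1 clone, and the p-values measure only the spread between these libraries.

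NRF2, encoded by Nfe2l2, is a transcription factor that is held low by KEAP1, an adaptor that hands it to the CUL3 ubiquitin ligase for degradation. Oxidants and electrophiles modify cysteines of KEAP1, after which NRF2 accumulates, pairs with a small MAF protein and binds antioxidant response elements near its target genes. The targets make and use glutathione and thioredoxin, detoxify quinones and break down heme, and in liver and liver tumours the pathway is known for resistance to oxidants and drugs. Since NRF2 is controlled mainly as a protein, the level of its mRNA is not a measure of its activity.

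The core of the antioxidant response element, TGACNNNGC on either strand, was looked for from 250 bases before to 50 bases after the start sites of the members, and the windows that hold it are shown because NRF2 is known to bind this core. A match describes the sequence and is no evidence of binding. RefSeq promoters of GRCm38.p6 were matched by symbol for 8 of the 10 members, and 4 of these 8 held the core in at least 1 window, against 14.0% of all 27025 genes in the promoter table. None of the 4 matches overlapped TGANTCA, the element of the AP-1 factors. The core is in capitals in each sequence below, which runs 5′ to 3′ on the strand of the gene.
Nfe2l2, chr2:75704865-75704913 (minus strand), core starting at -240 from the start site: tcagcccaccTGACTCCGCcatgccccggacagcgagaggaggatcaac
Gclm, chr3:122245393-122245461 (plus strand), core starting at -134: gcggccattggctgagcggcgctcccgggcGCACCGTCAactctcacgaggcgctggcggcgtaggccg
Txnrd1, chr10:82859084-82859152 (plus strand), core starting at -92 of an internal start site: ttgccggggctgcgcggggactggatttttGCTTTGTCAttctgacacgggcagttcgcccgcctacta
Srxn1, chr2:152105522-152105573 (plus strand), core starting at 29 after the start site: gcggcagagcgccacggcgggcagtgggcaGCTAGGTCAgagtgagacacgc
The Gclm, Txnrd1 and Srxn1 cores lie in the reverse orientation. Nqo1, Keap1, Slc7a11 and Gpx4 had no match in these windows, which says only that these letters are not there.

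The libraries held from 25586301 (wt) to 33119710 (knockdown 50-5) counts. Midn, the targeted gene, had an RPKM of 59.6 and 50.8 in the scr libraries and of 20.3, 21.8 and 22.1 in the knockdown libraries, which gave a log2 fold change in knockdown of -1.38 (standard error, SE, 0.133, FDR 0.00777 by the quasi-likelihood test of edgeR, Benjamini-Hochberg adjusted). Of 8 hepatocyte markers, 8 had an RPKM over 1 in wt and 7 in each other library, with Apoa1 below it, and their summed RPKM was 6378 in wt, 4006 and 4400 in scr, and between 1565 and 2458 in knockdown. The 4 macrophage markers summed to between 4.15 and 4.70 in scr and between 8.58 and 13.6 in knockdown and to 4.06 in wt. Cd68 was over 1 in all 6 libraries, Csf1r in scr 25-2 and all 3 knockdown libraries, Adgre1 was at 0 in scr 25-2 and all 3 knockdown libraries, and Ptprc was at 0 in scr 25-2. The 3 endothelial markers summed to at most 0.358 in scr and knockdown and to 2.88 in wt, where Pecam1 was over 1. The 4 fibroblast or stellate markers summed to between 562 and 594 in scr and between 409 and 573 in knockdown, and to 1029 in wt, with Dcn alone over 1. In bulk RNA a smaller share of cells expressing a gene and less RNA per cell cannot be told apart, and the part of these marker changes in the results below was not tested.

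None of the 10 members was called as differentially expressed between the 3 knockdown and the 2 scr libraries. A gene was called where it differed by 1.5-fold or more in either direction with an FDR under 0.05, adjusted by Benjamini-Hochberg over all genes tested in edgeR's quasi-likelihood test. These criteria took 10.6% of all genes tested, 5.4% higher and 5.23% lower in knockdown. For 10 members, 0 called is near this share and does not show that they were unchanged. No member reached an unadjusted p under 0.05 in this test, DESeq2 called 0 with 2 at an unadjusted p under 0.05, and limma on log2 RPKM called 0 with none. The FDR of the members lay between 0.202 and 0.933. Their median log2 fold change was -0.18, against -0.0097 over all genes tested.

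The members also differed between the 2 control libraries. With scr 50-1 set against scr 25-2, 8 of the 10 members were at least 1.5-fold higher in scr 50-1, where 15.4% of all genes tested were, and none was at least 1.5-fold lower, where 14.1% of all genes tested were. The median log2 ratio of scr 50-1 to scr 25-2 was 0.92 over the members and 0.016 over all genes tested. The 10 members together took 0.143% of the counts in scr 50-1 and 0.0755% in scr 25-2, with 0.0953% in wt and 0.105%, 0.106% and 0.0997% in knockdown 25-3, 50-2 and 50-5. With 1 library on each side this difference has no replicate check, and a difference between clones, cultures or libraries cannot be told apart. It is given without a test.

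**Figure D1:**
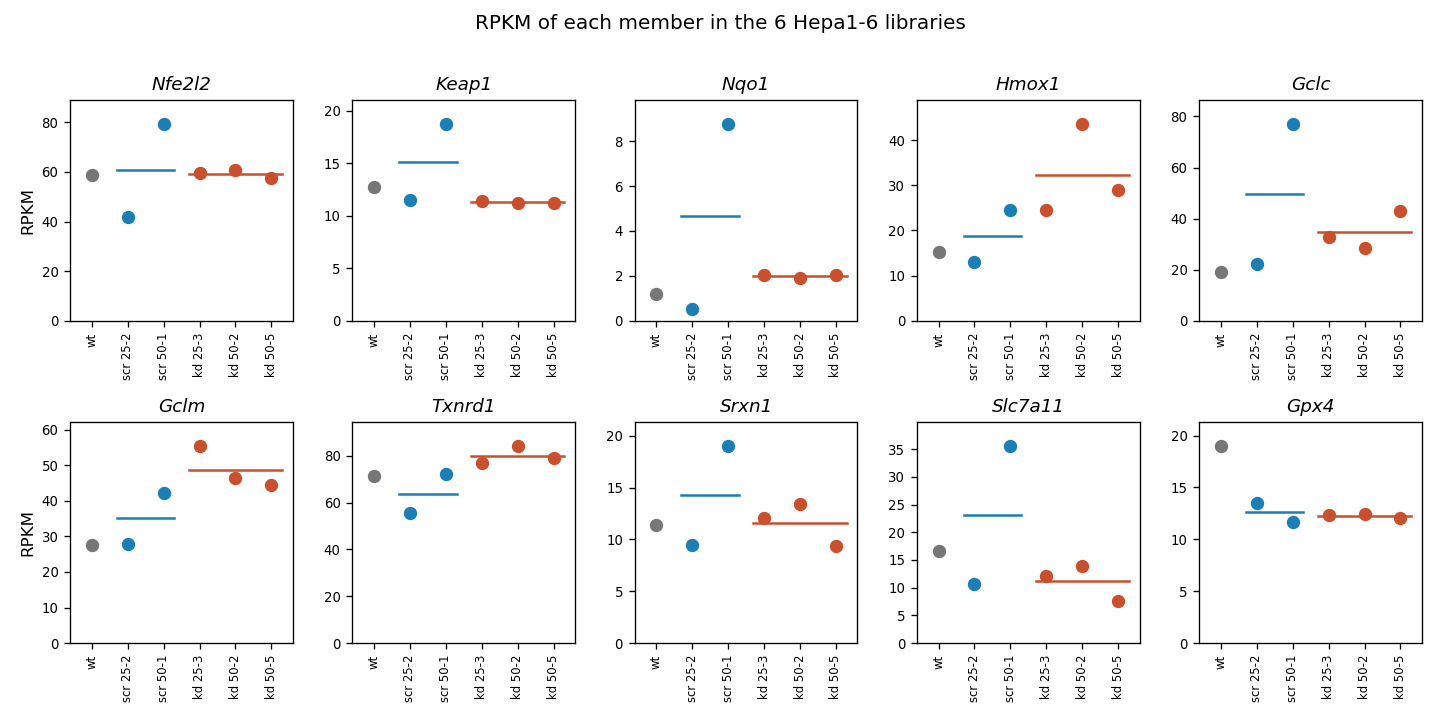
RPKM of each of the 10 members (vertical axis, starting at 0) in the wt, scr and knockdown (kd) libraries (horizontal axis), each point being 1 library and each line the mean of a group. The scr points lie far apart for Nqo1, Gclc and Slc7a11, and the 3 knockdown points of Nqo1 lie between 1.89 and 2.04, between the scr values of 0.525 and 8.78.

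Nfe2l2 (chromosome 2, 75675513 to 75704663 in mm10) had an RPKM of 58.9 in wt, 41.9 in scr 25-2, 79.4 in scr 50-1, and 59.6, 60.9 and 57.4 in knockdown 25-3, 50-2 and 50-5. All 3 knockdown libraries and wt lay between the scr libraries. The log2 fold change of knockdown over scr was -0.04 (SE 0.267, FDR 0.933, edgeR), and scr 50-1 was 1.90-fold higher than scr 25-2.

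Keap1 (chromosome 9, 21229730 to 21239332) had an RPKM of 12.7 in wt, 11.5 in scr 25-2, 18.8 in scr 50-1, and 11.4, 11.2 and 11.3 in knockdown. The knockdown libraries were below both scr libraries and below wt, but scr 25-2 was only just above the highest of them. The log2 fold change was -0.44 (SE 0.216, FDR 0.228, edgeR). Keap1 was the 1 member with all 3 knockdown libraries below both scr libraries, an order found in 24.5% of all genes tested. In GENCODE its transcript overlaps that of an antisense gene over 209 bases, and whether counting used the strand is not given, so reads of the antisense gene may be among its counts.

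Nqo1 (chromosome 8, 107388225 to 107403205), the quinone reductase that is widely read as a marker of NRF2 activity, was the member that differed most between the control libraries. It had an RPKM of 1.21 in wt, 0.525 in scr 25-2, 8.78 in scr 50-1, and 2.04, 1.89 and 2.03 in knockdown 25-3, 50-2 and 50-5. These rested on 49, 24, 388, 100, 95 and 104 counts. Scr 50-1 was 16.7-fold higher than scr 25-2, a ratio exceeded by 65 of the 11577 genes tested (0.561%), while the knockdown libraries agreed within 1.08-fold. The mean of the knockdown libraries was 3.78-fold that of scr 25-2 and 0.226-fold that of scr 50-1. Against the 2 scr libraries together its log2 fold change was -1.23 with an SE of 0.965 (FDR 0.427, edgeR). It was -0.37 and -0.18 with limma on log2(RPKM + 1) and log2(RPKM + 0.1), and -0.82 when wt joined the scr libraries as a control. Nqo1 was called in none of these fits.

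Hmox1 (chromosome 8, 75093618 to 75100593), heme oxygenase 1, splits heme into biliverdin, iron and carbon monoxide. Its RPKM was 15.3 in wt, 13.1 in scr 25-2, 24.50 in scr 50-1, and 24.53, 43.6 and 28.9 in knockdown 25-3, 50-2 and 50-5. All knockdown libraries were above both scr libraries and wt, knockdown 25-3 only barely above scr 50-1. The log2 fold change was 0.77 (SE 0.359, FDR 0.204, edgeR).

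Gclc and Gclm encode the catalytic and the modifier subunit of glutamate-cysteine ligase, the rate-limiting enzyme of glutathione synthesis, and their patterns were not alike. Gclc (chromosome 9, 77754535 to 77794489) had an RPKM of 19.3 in wt, 22.2 in scr 25-2, 77.2 in scr 50-1, and 32.7, 28.6 and 42.9 in knockdown 25-3, 50-2 and 50-5. The knockdown libraries lay between the scr libraries and above wt, with a log2 fold change of -0.52 (SE 0.502, FDR 0.516, edgeR), which was -0.27 with limma at either pseudocount and -0.19 with wt added to the controls. Gclm (chromosome 3, 122245557 to 122267215) had an RPKM of 27.5 in wt, 27.9 in scr 25-2, 42.3 in scr 50-1, and 55.5, 46.6 and 44.4 in knockdown. Every knockdown library was above both scr libraries and wt for Gclm, with a log2 fold change of 0.47 (SE 0.215, FDR 0.202, edgeR). Scr 50-1 was 3.47-fold higher than scr 25-2 for Gclc and 1.52-fold higher for Gclm.

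Slc7a11 (chromosome 3, 50364936 to 50443613), the cystine importer xCT that supplies cysteine for glutathione, had an RPKM of 16.6 in wt, 10.7 in scr 25-2, 35.6 in scr 50-1, and 12.05, 13.9 and 7.57 in knockdown 25-3, 50-2 and 50-5. Its knockdown libraries lay on both sides of scr 25-2 and below wt and scr 50-1. The log2 fold change was -1.06 (SE 0.513, FDR 0.219, edgeR), and scr 50-1 was 3.33-fold higher than scr 25-2. A stretch of its annotated transcript matched Tuba1b at 92.5% over 585 bases, so some of its reads may be hard to place.

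Txnrd1 (chromosome 10, 82833951 to 82897724), the cytosolic thioredoxin reductase and a selenoprotein, had an RPKM of 71.5 in wt, 55.5 in scr 25-2, 72.1 in scr 50-1, and 76.7, 84.2 and 79.2 in knockdown. All 3 knockdown libraries were above both scr libraries and wt, and the log2 fold change was 0.32 (SE 0.153, FDR 0.220, edgeR). Srxn1 (chromosome 2, 152105524 to 152111376), sulfiredoxin, which repairs over-oxidized peroxiredoxins, had an RPKM of 11.4 in wt, 9.45 in scr 25-2, 19.0 in scr 50-1, and 12.1, 13.5 and 9.36 in knockdown 25-3, 50-2 and 50-5. Its knockdown libraries lay on both sides of wt, 1 of them was below both scr libraries, and the log2 fold change was -0.30 (SE 0.320, FDR 0.558, edgeR). Txnrd1 shares its span with Eid3 on the same strand, which had between 96 and 164 counts.

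Gpx4 (chromosome 10, 80047166 to 80056439), the selenoprotein that reduces lipid peroxides and guards against ferroptosis, was the steadiest member outside wt. Its RPKM was 13.5 in scr 25-2, 11.7 in scr 50-1, and 12.3, 12.4 and 12.03 in knockdown, and all 3 knockdown values lay between the scr values. The log2 fold change was -0.05 (SE 0.163, FDR 0.852, edgeR). Wt stood above all of them at 19.0. Gpx4 was also the 1 member that was lower in scr 50-1 than in scr 25-2, by 1.16-fold. Its transcript matched the pseudogene Gpx4-ps2 at 99.7% over 733 bases, so its counts are uncertain.

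Hmox1, Gclm and Txnrd1 thus had every knockdown library above both scr libraries, 3 of 10 members, and 25.7% of all genes tested had this order. For 6 members, Nfe2l2, Keap1, Nqo1, Gclc, Srxn1 and Slc7a11, scr 50-1 was the highest of the 6 libraries, which held for 23.2% of all genes tested. Wt was nearer scr 25-2 than scr 50-1 on the log2(RPKM + 1) scale for 8 of the 10 members and for 57.5% of all genes tested. The coefficient of variation of RPKM ran from 10.2% (Gpx4) to 125% (Nqo1) between the scr libraries and from 0.796% (Keap1) to 30.9% (Hmox1) among the knockdown libraries.

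Which scr library served as the control set the direction of several members. Against scr 50-1 alone, 4 members were called lower in knockdown, with log2 fold changes of -2.14 for Nqo1 (FDR 0.00665), -1.67 for Slc7a11 (FDR 0.0235), -1.15 for Gclc (FDR 0.0297) and -0.73 for Keap1 (FDR 0.0202, all by edgeR). In that fit 9.87% of all genes tested were called lower. Against scr 25-2 alone, Nqo1 was called higher in knockdown, with a log2 fold change of 1.90 (FDR 0.0367, edgeR), and no other member was called. In that fit 5.87% of all genes tested were called higher, so 1 of 10 members is near the background. Nfe2l2, Gclc and Srxn1 also changed sign between the 2 controls, at -0.42 and 0.49, -1.15 and 0.63, and -0.71 and 0.29, and so did Slc7a11 and Gpx4 with a value near 0 on 1 side. Hmox1, Gclm and Txnrd1 were above 0 and Keap1 below 0 with either control, with log2 fold changes from 0.40 to 1.29, 0.21 to 0.79, 0.15 to 0.52, and -0.73 to -0.041. Their kept sign follows from every knockdown library lying on 1 side of both scr libraries and is no further support. In these fits the lone control library is assumed to vary like the knockdown libraries.

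**Figure D2:**
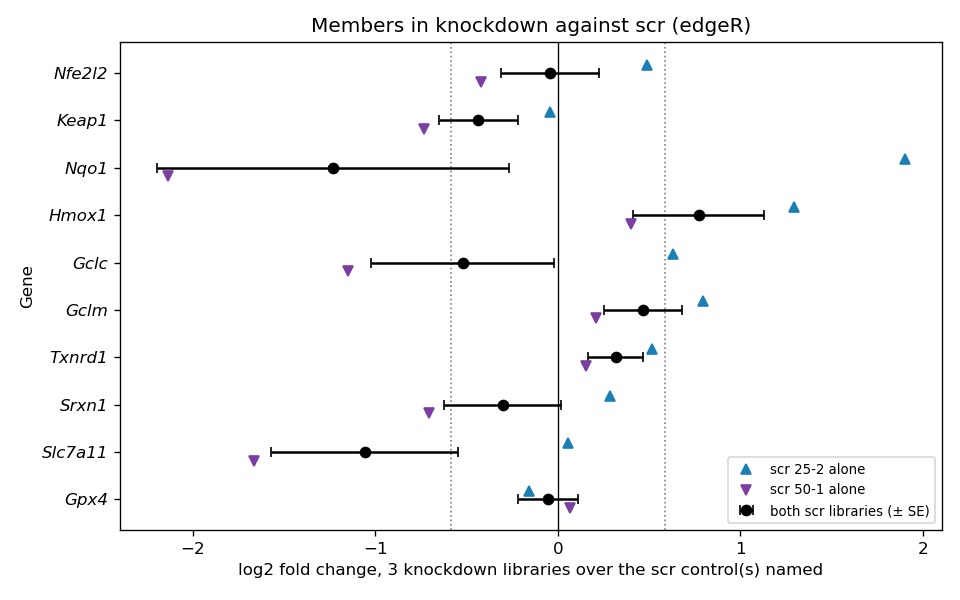
Log2 fold change of each member in the 3 knockdown libraries over both scr libraries (black points with standard errors), over scr 25-2 alone (upward triangles) and over scr 50-1 alone (downward triangles), with dotted lines at a 1.5-fold change. Nqo1 runs from -2.14 with scr 50-1 to 1.90 with scr 25-2, whereas Hmox1, Gclm and Txnrd1 stay to the right of 0.

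When wt, which entered no main test, stood in for scr 50-1, a choice made after seeing the values, Gclm and Hmox1 were called higher in knockdown, with log2 fold changes of 0.82 (FDR 0.0183) and 1.19 (FDR 0.0320, both by edgeR), and 7.65% of all genes tested were called higher. With wt added to both scr libraries neither was called, at 0.58 for Gclm (FDR 0.0964) and 0.87 for Hmox1 (FDR 0.0936, both by edgeR), nor was any other member. When wt stood in for scr 25-2, no member was called by edgeR, where 13.1% of all genes tested were called in either direction, and 2 members reached an unadjusted p under 0.05.

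Around the members, 10 lists of genes were read from the same fit. They held 122 genes tested, of which 12 were called, 11 lower and 1 higher in knockdown. This is 9.84% in either direction, against 10.6% of all genes tested. By direction it is 9.02% lower against 5.23% and 0.82% higher against 5.4%. For each of the 12 the knockdown and scr values did not overlap, and the direction held in all 16 alternatives. Both are largely set by the choice of these genes in the same libraries and are no further support. The calls did not hold as well: without knockdown 25-3 the same test called 3 of the 12, without knockdown 50-2 it called 1 and without knockdown 50-5 it called 2, while without scr 25-2 or scr 50-1 it called 12 and 11. Chac2 was the gene called in all 16. The number of listed genes called, whichever they were, moved as well. It was 37 of 122 without scr 25-2 (30.3%, against 19.9% of all genes tested in that fit) and 22 of 120 without scr 50-1 (18.3% against 11.3%). Without knockdown 25-3, 50-2 and 50-5 it was 3, 1 and 4 of 122 (2.46%, 0.82% and 3.28%, against 2.24%, 1.14% and 3.01%). DESeq2 called 30 of 122 (24.6% against 20.1%), and with wt in place of scr 25-2 edgeR called 20 of 122 (16.4% against 13.1%). The share of listed genes called was below that of all genes tested in the edgeR fit described here, with relative log expression (RLE) scaling in edgeR and without knockdown 50-2, and above it in every other alternative.

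Among 13 tested regulators of the pathway 1 was called, Bach1, the repressor that competes with NRF2 for antioxidant response elements. Its RPKM was 8.58 in wt, 9.14 in scr 25-2, 13.9 in scr 50-1, and 3.89, 4.54 and 5.42 in knockdown 25-3, 50-2 and 50-5, an order kept for the genes that follow. Every knockdown library was below wt and both scr libraries, and Bach1 fell by 1.33 on the log2 scale (SE 0.233, FDR 0.0266, edgeR). Of the regulators not called, Sqstm1, whose protein p62 sequesters KEAP1, had an RPKM of 302 in wt, 309 and 591 in the scr cells, and 336, 411 and 372 in the knockdown cells. Maff, a small MAF partner of NRF2, had 47.9 in wt, 36.3 and 71.9 in the scr cells, and 45.8, 48.5 and 35.7 in the knockdown cells. Scr 50-1 was the highest library for both of these, as it was for 10 of the 13 regulators and for 23.2% of all genes tested. Cul3, the scaffold of the ligase that KEAP1 serves, had 47.3 and 49.2 in the scr cells and 64.0, 58.7 and 78.8 in the knockdown cells (FDR 0.130, edgeR).

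In glutathione synthesis and transport 1 of 13 genes was called, Chac2, which degrades glutathione. Its RPKM was 31.2 in wt, 43.5 and 37.5 in the scr cells, and 13.9, 15.7 and 12.9 in the knockdown cells. All knockdown values were below the others, and Chac2 fell by 1.53 on the log2 scale (SE 0.151, FDR 0.00777, edgeR). Slc3a2, the heavy chain that pairs with Slc7a11 in the cystine importer, had 51.7 in wt, 49.3 and 56.5 in the scr cells, and 61.3, 71.1 and 67.0 in the knockdown cells, without being called (FDR 0.173, edgeR). Its knockdown values were thus above wt and both scr values, whereas those of Slc7a11 were below wt and scr 50-1. The exporters Abcc2 and Abcc4 were not called, and scr 50-1 was 2.10-fold and 3.46-fold higher than scr 25-2 for them.

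Among 9 glutathione peroxidases, reductases and related genes 1 was called, Gpx8, a peroxidase of the endoplasmic reticulum. It had an RPKM of 46.0 in wt, 26.5 and 15.0 in the scr cells, and 74.0, 92.1 and 90.4 in the knockdown cells. Gpx8 rose by 2.03 on the log2 scale (SE 0.286, FDR 0.0158, edgeR), with wt between the groups, and it was not called with wt in place of scr 25-2. Gpx1, the abundant cytosolic glutathione peroxidase, had 108 in wt, 62.9 and 96.6 in the scr cells, and 130, 151 and 151 in the knockdown cells, with an FDR of 0.0612 (edgeR). Gsr, glutathione reductase, had 61.8 in wt, 52.3 and 103 in the scr cells, and 59.9, 60.6 and 63.6 in the knockdown cells, which places all knockdown values between the scr values.

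None of 15 thioredoxin system genes was called by edgeR. Txn1, thioredoxin itself, had an RPKM of 345 in wt, 236 and 307 in the scr cells, and 386, 382 and 410 in the knockdown cells (FDR 0.0837, edgeR). Prdx1, a peroxiredoxin, had 513 in wt, 333 and 461 in the scr cells, and 305, 254 and 215 in the knockdown cells (FDR 0.105, edgeR). Knockdown and scr did not overlap for either gene, with Txn1 above and Prdx1 below scr. Prdx6 had 140 in scr 25-2, 352 in scr 50-1, and 216, 234 and 333 in knockdown, between the scr values.

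In NADPH supply, which feeds glutathione reductase and thioredoxin reductase, 3 of 12 genes were called, all lower in knockdown, where 5.23% of all genes tested were called lower. Tkt, transketolase of the pentose phosphate pathway, had an RPKM of 75.3 in wt, 88.4 and 85.7 in the scr cells, and 52.3, 56.3 and 56.1 in the knockdown cells (log2 fold change -0.68, SE 0.115, FDR 0.0243, edgeR). Idh1, the cytosolic isocitrate dehydrogenase, had 81.5 in wt, 84.9 and 127 in the scr cells, and 54.6, 54.9 and 53.8 in the knockdown cells (log2 fold change -0.98, SE 0.187, FDR 0.0324, edgeR). Nadk2, the mitochondrial NAD kinase, had 8.38 in wt, 14.7 and 16.9 in the scr cells, and 7.34, 5.73 and 4.73 in the knockdown cells (log2 fold change -1.42, SE 0.208, FDR 0.0169, edgeR). For Nadk2 wt was nearer the knockdown than the scr libraries. With wt in place of either scr library Nadk2 and Tkt were not called. Taldo1, transaldolase of the same pathway as Tkt, had 74.6 and 89.0 in the scr cells and 108, 109 and 105 in the knockdown cells without being called (FDR 0.116, edgeR). Me1, the cytosolic malic enzyme and a further source of NADPH, had 44.8 in wt, 97.3 and 132 in the scr cells, and 82.2, 73.1 and 80.3 in the knockdown cells (FDR 0.0849, edgeR), so that wt was below all other libraries.

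Of 10 other antioxidant enzymes 2 were called, both lower. Sod1, the copper and zinc superoxide dismutase, had an RPKM of 365 in wt, 365 and 582 in the scr cells, and 245, 219 and 249 in the knockdown cells (log2 fold change -1.01, SE 0.214, FDR 0.0417, edgeR), and it was not called without scr 50-1 (FDR 0.0501, edgeR) or without any 1 of the knockdown libraries. Blvrb, a biliverdin and flavin reductase, had 88.3 in wt, 58.0 and 99.8 in the scr cells, and 27.5, 35.9 and 27.2 in the knockdown cells (log2 fold change -1.40, SE 0.260, FDR 0.0306, edgeR). The knockdown values of Blvrb were below wt and both scr libraries, while those of Hmox1 were above all of them. Fth1, the ferritin heavy chain that stores iron, had 674 in wt, 532 and 1242 in the scr cells, and 413, 385 and 323 in the knockdown cells and was not called (FDR 0.0721, edgeR).

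**Figure D3:**
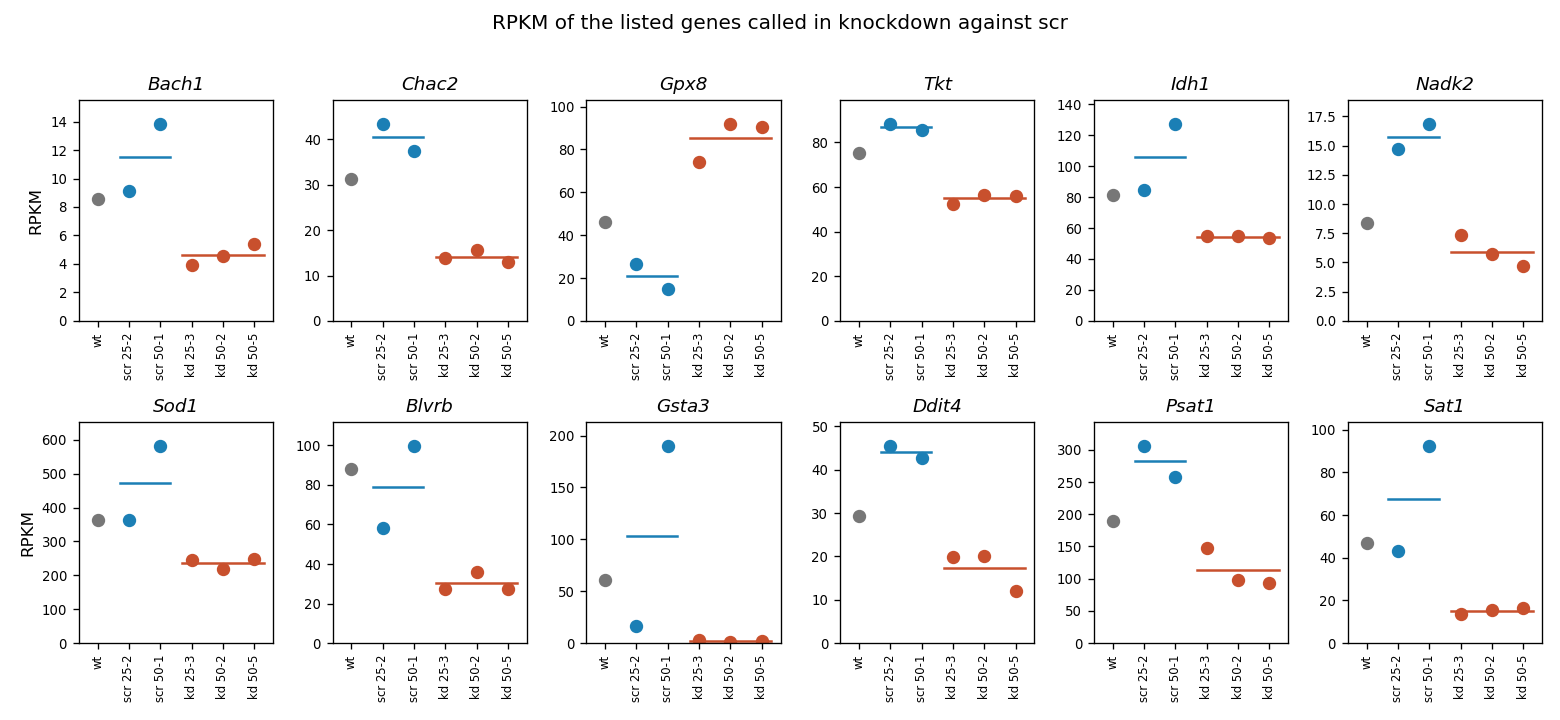
RPKM (vertical axis, starting at 0) of the 12 listed genes called in knockdown against scr, in the wt, scr and knockdown (kd) libraries, each point being 1 library and each line the mean of a group. Gpx8 is the 1 gene whose knockdown points lie above the scr points, and for the 11 others they lie below.

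The other genes known to be induced by NRF2 also differed between the control libraries. Of 20 tested, 15 were at least 1.5-fold higher in scr 50-1 than in scr 25-2 and 0 were lower by that much, against 15.4% and 14.1% of all genes tested, with a median log2 ratio of 1.18. In knockdown against scr 1 of the 20 was called, Gsta3, a glutathione transferase, with an RPKM of 60.4 in wt, 16.5 in scr 25-2, 190 in scr 50-1, and 2.67, 1.40 and 1.78 in knockdown. Gsta3 fell by 5.73 on the log2 scale (SE 1.02, FDR 0.0276, edgeR), and the log2 fold change lay between -6.60 and -3.09 over all alternatives, but it was not called when any 1 of the knockdown libraries was left out. Ephx1, the microsomal epoxide hydrolase, had 85.7 in wt, 89.1 and 226 in the scr cells, and 31.7, 43.2 and 68.0 in the knockdown cells (FDR 0.0706, edgeR). Gstm1, a further glutathione transferase, had 74.2 in wt, 72.0 and 158 in the scr cells, and 16.8, 15.7 and 42.3 in the knockdown cells (FDR 0.0580, edgeR). Gsta3, Ephx1 and Gstm1 thus had every knockdown library below wt and both scr libraries. Akr1b8, an aldo-keto reductase, had 51.7 in wt, 44.3 and 75.7 in the scr cells, and 83.5, 95.5 and 76.7 in the knockdown cells (FDR 0.234, edgeR), with the knockdown values above the others. Gsta4 and Mgst1, named after their values were seen, were 19.2-fold and 8.77-fold higher in scr 50-1 than in scr 25-2 and were not called in knockdown. The transferases named here were not compared with other transcripts, so reads shared with related genes may be among their counts.

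**Figure D4:**
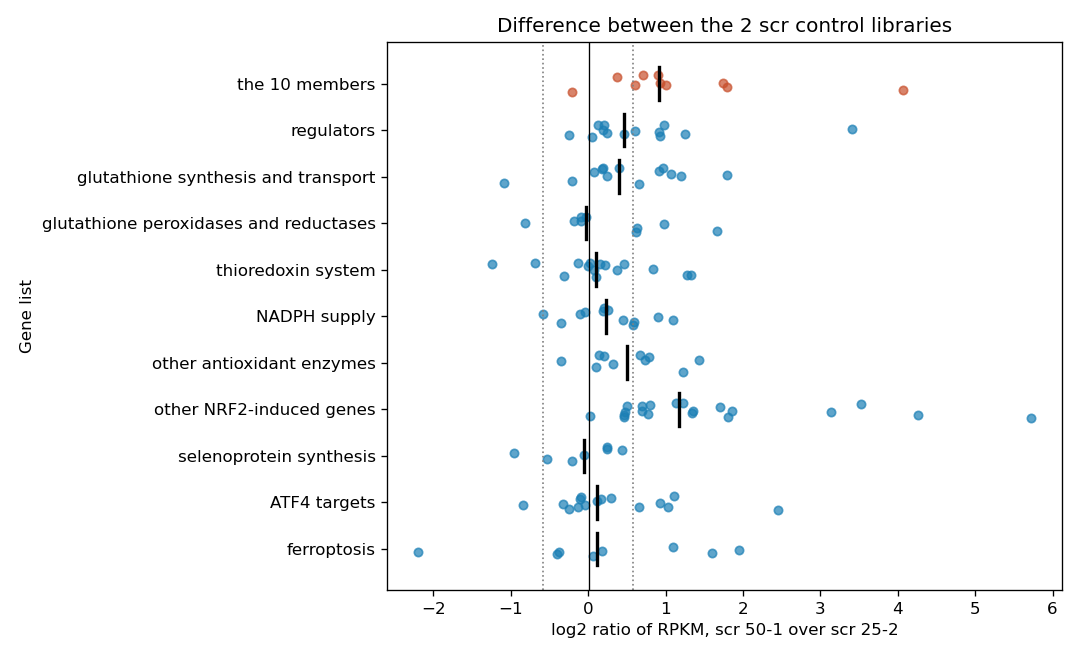
Log2 ratio of RPKM in scr 50-1 to that in scr 25-2 (horizontal axis) for the 10 members and for each gene of the 10 other lists (rows), with the median of each list as a thick bar, the median of all genes tested as a solid line and dotted lines at a 1.5-fold difference. The medians are 0.92 for the members and 1.18 for the other NRF2-induced genes, against 0.016 over all genes tested and -0.059 for selenoprotein synthesis.

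The remaining lists gave smaller medians for the same ratio of the scr libraries, from -0.059 to 0.50. The highest were 0.50 for other antioxidant enzymes, 0.47 for regulators and 0.40 for glutathione synthesis and transport. In these lists 5 of 10, 6 of 13 and 6 of 13 genes were at least 1.5-fold higher in scr 50-1, against 15.4% of all genes tested. The lowest median, -0.059, was that of 7 genes of selenoprotein synthesis, on which Gpx4 and Txnrd1 depend. None of these 7 was called in knockdown by edgeR. Sephs2, which makes the selenium donor, had an RPKM of 54.8 and 28.2 in the scr cells and 47.6, 30.03 and 29.0 in the knockdown cells, between the scr values.

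The median ratio was 0.12 over 15 genes of the ATF4 response, the amino acid stress program that also induces Slc7a11, of which 2 were called, both lower in knockdown. Ddit4, an inhibitor of mTORC1 signalling, had an RPKM of 29.3 in wt, 45.5 and 42.7 in the scr cells, and 19.8, 20.0 and 12.1 in the knockdown cells (log2 fold change -1.36, SE 0.239, FDR 0.0265, edgeR). Psat1, an enzyme of serine synthesis, had 190 in wt, 306 and 258 in the scr cells, and 148, 97.6 and 93.9 in the knockdown cells (log2 fold change -1.33, SE 0.235, FDR 0.0271, edgeR). With wt in place of scr 25-2 neither was called. Atf4 itself had 187 in wt, 146 and 230 in the scr cells, and 212, 180 and 129 in the knockdown cells, on both sides of scr 25-2 and of wt.

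Of 8 ferroptosis genes 1 was called, Sat1, the polyamine acetyltransferase, with an RPKM of 46.7 in wt, 43.1 and 92.4 in the scr cells, and 13.7, 15.5 and 16.4 in the knockdown cells. It fell by 2.17 on the log2 scale (SE 0.319, FDR 0.0173, edgeR). Acsl4, which activates the fatty acids that peroxidize in ferroptosis, had 35.4 in scr 25-2, 137 in scr 50-1 and 59.3, 50.9 and 50.3 in knockdown, between the scr values. Slc40a1, the iron exporter, was 4.59-fold lower in scr 50-1 than in scr 25-2 and was not called. Over all 10 lists, 50 of 122 genes (41.0%) were at least 1.5-fold higher in scr 50-1 and 7 (5.74%) at least 1.5-fold lower, against 15.4% and 14.1% of all genes tested.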

How the data were processed

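Reads were mapped by the authors to mm10 (TopHat2) and assigned to RefSeq genes (HTSeq), and the resulting counts were deposited unnormalized. They also deposited RPKM values computed with TMM-scaled library sizes in edgeR. The strand setting is not given in the sources used here. Library columns were matched to samples by name, and 0 were left unmatched.

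Counts were tested with edgeR 4.0.16 in R 4.3.3 (quasi-likelihood test, TMM, Benjamini-Hochberg adjustment over all genes tested) in 3 knockdown against 2 scr libraries, restricted to genes above an RPKM of 1 in 1 or more of these libraries. The call thresholds, an FDR under 0.05 and a change of 1.5-fold or more, follow the paper. The labels do not name the clones sh1 and sh2 of the paper, so all 3 knockdown libraries entered. Each SE was derived from the F statistic, as the size of the log2 fold change over its root. The test was run on simulated counts before use. Alternatives used DESeq2 1.42.0, limma 3.58.1 on log2(RPKM + 1) and log2(RPKM + 0.1), other scalings and filters, and other sets of libraries. Total counts ran from 25586301 to 33119710.

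The members, the gene lists and the tests were chosen with earlier results of these data known. The genes named are the members, the targeted gene, every listed gene that was called and at most 4 uncalled genes of each list, apart from those said to be named after their values were seen. The uncalled genes come from the 4 with the highest mean RPKM in each list. Some of these 4 were left out of the text, by no stated rule. Members were compared with all GENCODE M21 transcripts with BLAST 2.17.0, at 90% identity over 200 bases or more. Figures were drawn with matplotlib 3.10.9.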

Additional observations from a re-analysis of the deposited data

Results flagged for a closer look

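Gpx4 was at an RPKM of 19.0 in wt, a library that entered no main test, against 13.5 and 11.7 in the scr libraries. It was looked at again because wt lay above both control libraries, which held for no other member. With 1 wt library there is no replicate check, and the difference was not tested.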

How the results depend on the processing

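The number of genes called in knockdown against scr was 1230 and moved to 2322 with DESeq2 and to 807 with the 25 or 50 of the titles as a replicate block, while leaving out 1 library at a time gave 131 to 2273. The replicate block rests on a number whose meaning is not given. The difference between the 25 and 50 libraries of scr and that of knockdown had a correlation of 0.041 across genes. With 1 such difference on each side, this value cannot tell whether the numbers pair the libraries. With the block no member was called by edgeR and 1 reached an unadjusted p under 0.05, and of the 12 listed genes called without it 10 were called, with Gsta3 (FDR 0.0609) and Sod1 (FDR 0.0602, edgeR) not called. The number of members called was 0, ranged from 0 to 4 when 1 library was left out and was 2 with wt in place of scr 50-1, Gclm at 0.82 and Hmox1 at 1.19. With each library left out, the log2 fold changes ran from -0.42 to 0.49 for Nfe2l2, -0.73 to -0.041 for Keap1, -2.14 to 1.90 for Nqo1, 0.40 to 1.29 for Hmox1, -1.15 to 0.63 for Gclc, 0.21 to 0.79 for Gclm, 0.15 to 0.52 for Txnrd1, -0.71 to 0.29 for Srxn1, -1.67 to 0.053 for Slc7a11 and -0.16 to 0.069 for Gpx4, and every change of sign came from leaving out a scr library. Reversed values also came with wt in place of scr 50-1, at 0.24 for Nfe2l2, 1.20 for Nqo1, 0.74 for Gclc and 0.16 for Srxn1, and for Nfe2l2 with limma, at 0.038 and 0.040. Nqo1 moved from -1.23 to -0.77 with the replicate block, and Gpx4 from -0.05 to -0.27 and Srxn1 from -0.30 to -0.20 with wt added to the controls, without a call. Gpx4 was at -0.41 with wt in place of scr 50-1 and at -0.32 with wt in place of scr 25-2. With wt in place of scr 50-1, Slc7a11 was at -0.29 and Keap1 at -0.10, and none of these was called. The cause was not tested. Nqo1 rested on 24 counts in scr 25-2, the lowest count of any member.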
